A study of Rattus norvegicus with 6 samples.

Results

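Nfe2l1, Nfe2l2, the Nfe2l2 inhibitor Keap1 and 5 antioxidant genes commonly read as their targets (Hmox1, Nqo1, Gclc, Gclm and Txnrd1) were measured in sorted rat beta cells, which make the insulin of the pancreatic islet, with and without an siRNA against Nova1. Nova1 is an RNA-binding protein that regulates alternative splicing. The 8 genes were found by name among the 24579 gene models of the deposited transcript assembly, and they hold 34 of its 60887 transcripts, 10 of them from Nfe2l1. Nfe2l1 was taken because the shares of its transcripts were already known to differ between knockdown and control in these same libraries, and the others because they belong to the same pathway. Knockdown against control values of the 8 genes are therefore a description, with no test, and the calls among them support nothing.

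Cells sorted by fluorescence in 3 batches received 30 nM of siRNA, either a negative control (siCTL) or one directed at Nova1. Transfection lasted 16 h and recovery 48 h, so all 6 libraries come from cells exposed to siRNA and lipid reagent, and untransfected cells were not analysed here. The labels give no strain, sex or age and leave out whether each batch came from its own animals. The p-values therefore speak for these 3 batches, whose spread may in part be technical. Libraries are named by treatment and batch, as control 1 or knockdown 1.

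Nfe2l1 and Nfe2l2 are CNC-family basic leucine zipper transcription factors that bind antioxidant response elements together with small Maf proteins. Nfe2l2 is held in the cytoplasm by Keap1, which hands it to a Cul3 ubiquitin ligase, and is released by oxidative or electrophilic stress. Nfe2l1 is anchored in the membrane of the endoplasmic reticulum, from which it is extracted and cleaved to become active, and it is best known for raising proteasome subunit genes when proteasome activity falls. Beta cells are known for low amounts of some antioxidant enzymes, catalase among them.

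Nova1, the siRNA target, was lower after knockdown in all 3 batches. In CPM (estimated reads relative to library size, scaled between libraries) it was at 20.6, 21.5 and 17.4 in controls 1, 2 and 3 and 7.76, 10.2 and 9.43 in the knockdowns. The groups did not overlap, and the log2 fold change was -1.12 (SE 0.11; adjusted p = 0.038 in limma). It did not pass without batch 1 (adjusted p = 0.14) or without batch 2 (adjusted p = 0.15), nor without the batch block (adjusted p = 1.00). In RPKM summed over its transcripts (reads relative to transcript length and to the size of the library) the groups overlapped, at 5.06, 2.83 and 2.03 in controls and 1.38, 2.38 and 1.81 in knockdowns. Assigned reads ran from 95394043 to 292432076 per library and were more numerous in the control of every batch. The 10 beta cell markers summed to between 98089 and 244610 CPM, the lowest 2 values being those of batch 2. The 5 alpha cell markers summed to between 5307 and 13940 CPM, the highest 2 values being those of batch 2, and were higher in the knockdown of each batch. Acinar cell markers were lower in the knockdown of each batch, at 414, 264 and 150 CPM in controls 1, 2 and 3 and 306, 210 and 106 CPM in knockdowns, with 1 of 7 tested genes falling. Duct cell markers were higher in the knockdown of each batch, at 238, 165 and 217 CPM against 306, 181 and 275 CPM. Fibroblast and stellate cell markers summed to 37.4 to 81.7 CPM in controls and 93.1 to 119 CPM in knockdowns, with 1 of 7 tested genes rising. The macrophage and other immune list summed to 17.9 to 21.1 CPM in controls and 16.4 to 27.6 CPM in knockdowns, with 1 of 8 tested genes rising, 1 falling and Marco at 0 in all libraries. Over all genes tested, 0.513% were called higher and 1.2% lower in limma. Without the batch block 0 genes were called. The part of these marker lists in the levels of the 8 genes was not tested.

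The 8 genes spanned a wide range of levels. Ordered by mean summed RPKM in the controls (± SD, n = 3), Hmox1 came first at 129 ± 30.1, followed by Nfe2l1 at 42.2 ± 10.9 and Gclm at 41.7 ± 1.18. Nqo1 at 31.6 ± 6.07, Txnrd1 at 29.7 ± 4.20, Nfe2l2 at 22.9 ± 0.78 and Keap1 at 22.0 ± 3.90 came next, and Gclc was last at 7.58 ± 1.43. Among the 15983 genes tested, Hmox1 stood at the 97.2 percentile of control RPKM and Gclc at the 60.0 percentile. The control ranges of neighbours overlapped for Nfe2l1 and Gclm, for Nqo1 and Txnrd1, and for Nfe2l2 and Keap1, so these pairs do not differ beyond their spread. In bulk RNA a difference between libraries in fewer expressing cells cannot be told apart from less RNA per cell.

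**Figure D1:**
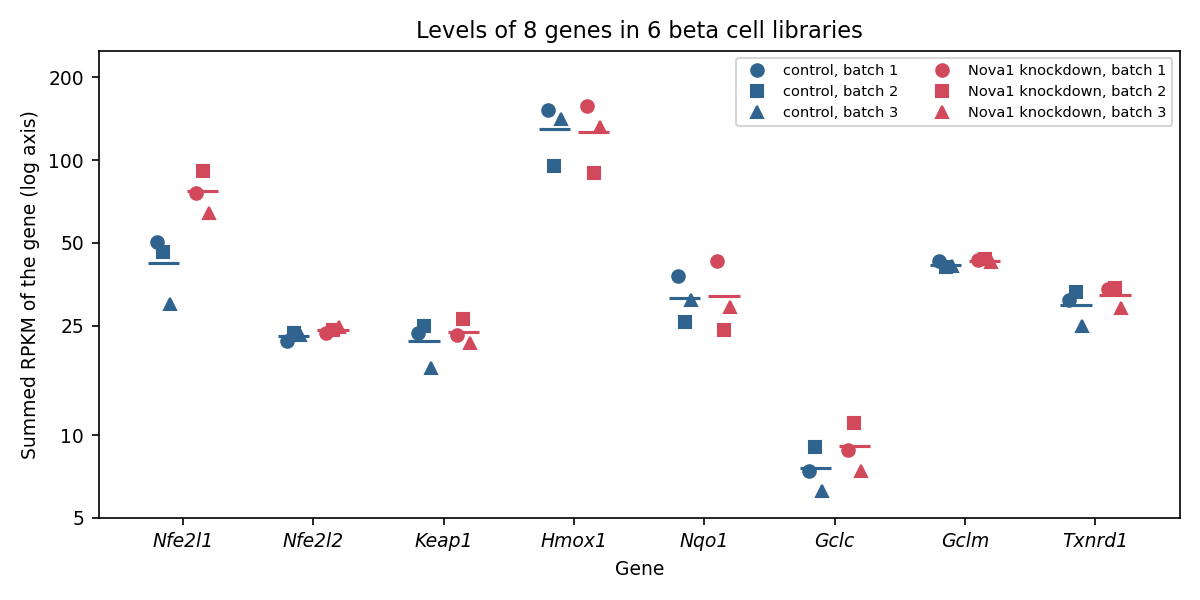
Summed RPKM (log axis) of each of the 8 genes in the 6 libraries, with points for libraries (shape by batch, colour by treatment) and horizontal bars for group means. The Nfe2l1 knockdown points lie between 64.2 and 91.2, above all its controls, while the points of the other 7 genes overlap between treatments.

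All 8 genes passed the filter on low reads, and 0 of the 8 were called in the gene fit in limma at an adjusted p below 0.05 in either direction, against a background of 1.71% of the genes tested. At an unadjusted p below 0.05 there was 1 (Gclc), against 3816 of the 15983 genes tested. The number called stayed at 0 in limma under each of 10 alternative settings. Without the block, without batch 2 and in each limma-trend fit, 0 genes were called among all genes tested. Without batch 1 there were 4. In those settings a 0 for the 8 genes was fixed or nearly so. CPM did not overlap between treatments for 0 of the 8, against a background of 8.06%, and summed RPKM did not overlap for 1 of the 8, Nfe2l1, against 7.8%. Because Nfe2l1 was chosen for a difference between these treatments, and the others as genes of its pathway, nothing is read from these counts.

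Nfe2l1, whose transcripts lie on the minus strand of chromosome 10 (Rnor_5.0, from 84475358 to 84492282), was read at a similar CPM with and without Nova1 knockdown, but the reads were assigned to different transcripts. It was measured at 282, 297 and 206 CPM in controls 1, 2 and 3 and at 298, 297 and 249 CPM in the knockdowns. The batches overlapped on this scale, and the log2 fold change of reads was 0.12 (SE 0.07). In summed RPKM the controls were at 50.5, 46.3 and 29.9 and the knockdowns at 75.9, 91.2 and 64.2. Every knockdown library was above every control on this scale, with batch log2 ratios of 0.59, 0.98 and 1.10 and a mean of 0.89, which is 1.85-fold.

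The 2 scales differ because RPKM divides the reads by transcript length, and they also differ in how libraries are scaled. The mean length of Nfe2l1 transcripts, weighted by RPKM, was 5260, 6538 and 6258 nt in controls 1, 2 and 3 and 3719, 3518 and 3669 nt in the knockdowns. Controls and knockdowns did not overlap in this length. Between the scales the log2 difference of Nfe2l1 moved by 0.77, and 128 of the 15983 genes tested (0.80%) moved by more, the median shift being 0.05. The genes tested include those with 1 transcript, which can move through library scaling alone. Hmox1, with 1 transcript, had a batch 2 log2 ratio of -0.17 in CPM and -0.09 in RPKM. The other 7 genes moved less than Nfe2l1 between the scales. Among them Gclc moved most, from 0.18 in CPM to 0.26 in RPKM, followed by Keap1, from 0.04 to 0.12. In batch 3 Keap1 had a log2 ratio of 0.10 in CPM and 0.30 in RPKM.

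**Figure D2:**
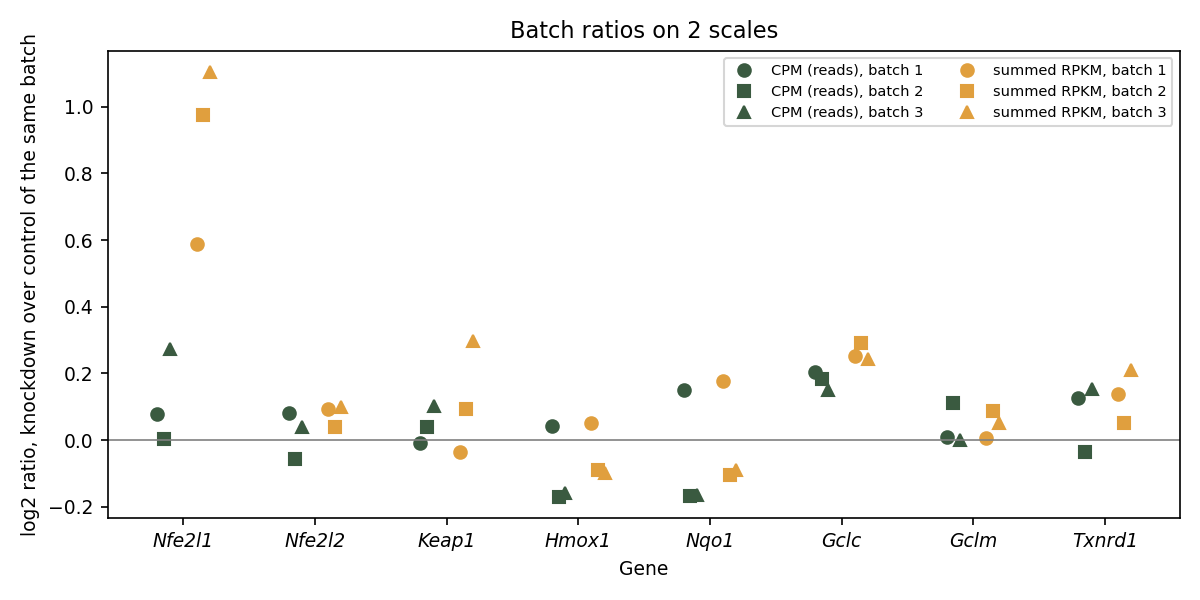
Log2 ratio of knockdown over control within each batch, in CPM (green) and in summed RPKM (orange), with 1 point per batch and the line at 0 marking equal levels. Nfe2l1 separates the scales, from 0.00 to 0.27 in CPM and from 0.59 to 1.10 in RPKM. Nfe2l1, Gclc and Gclm lie above 0 in all 3 batches on each scale, Gclm by at most 0.11.

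In the controls most Nfe2l1 RNA was assigned to a transcript of 7153 nt (TCONS_00013729), a new splice combination that begins at the most upstream first exon, carries a 5348-nt exon before the last and ends in a distal last exon of 243 nt. It held 49.9%, 83.4% and 77.5% of the gene's summed RPKM in controls 1, 2 and 3 and 5.19%, 5.15% and 4.97% in the knockdowns. Control 1 was the lowest of the controls, and all 3 knockdown values lay far below it and close together. Its estimated reads, before scaling for depth, went from 52864, 35253 and 34266 in the controls to 3709, 3377 and 3432 in the knockdowns.

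A shorter transcript of 3398 nt (TCONS_00013731) took most of the difference. It begins inside the gene with a 22-nt first exon and has 183 nt of an exon that is 216 nt long in most others. It ends in a proximal last exon of 3034 nt, from 84479727 to 84482760. The 5348-nt exon of TCONS_00013729, from 84477413 to 84482760, contains all of that sequence. The share of TCONS_00013731 was 27.5%, 1.15% and 1.44% in controls 1, 2 and 3 and 44.0%, 47.6% and 44.5% in the knockdowns. The share in control 1 was many times that in controls 2 and 3, and it still lay below all knockdowns. A related transcript of 3450 nt (TCONS_00013732), which starts a few bases upstream and has the 216-nt exon, held 4.20%, 4.04% and 5.93% in controls and 10.5%, 6.71% and 8.59% in knockdowns, with no overlap.

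Other transcripts were smaller. TCONS_00013735 (4503 nt, middle first exon, proximal last exon) held 5.09%, 4.64% and 1.56% in controls and 18.3%, 5.95% and 17.4% in knockdowns, without overlap but with knockdown 2 near the controls. TCONS_00013728 (2859 nt, upstream first exon, distal last exon) held 5.97%, 4.29% and 1.38% in controls and 10.1%, 4.34% and 16.2% in knockdowns, and the groups overlapped. TCONS_00013727 (3020 nt) was listed at 0 in all 3 controls and held 9.08%, 11.6% and 7.48% in knockdowns. An estimate listed at 0 can be a failed estimate where transcripts share most of their sequence, as here. TCONS_00013726 (2817 nt) moved with no order, at 7.04%, 0.17% and 11.7% in controls and 1.43%, 14.7% and 0.38% in knockdowns. The remaining 3 stayed small: TCONS_00013730 (2250 nt), the sole transcript of this gene that matches the reference, begins within the second exon and was above 0 in control 2 alone, TCONS_00013733 in knockdown 2 alone, and TCONS_00013734 held at most 1.40% of the gene in any library.

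**Figure D3:**
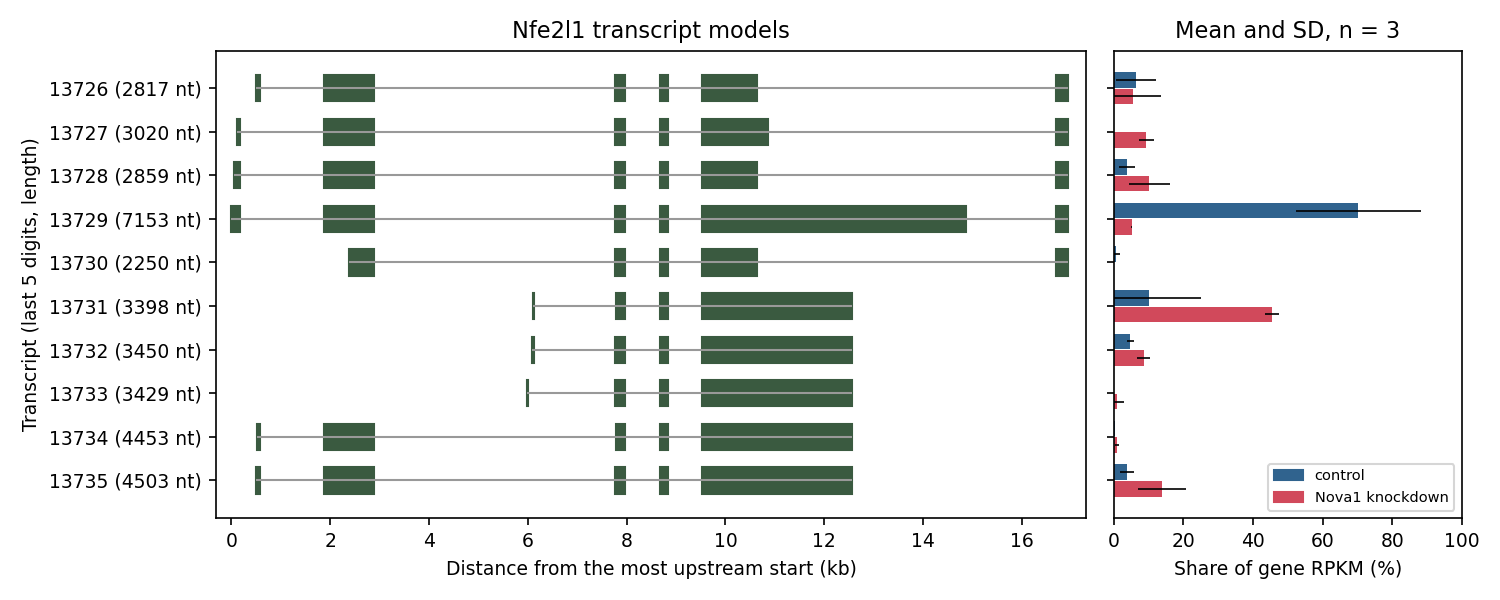
Left, exon models of the 10 Nfe2l1 transcripts to scale, 5′ to 3′ by distance from the most upstream start in kb. Right, share of the gene's RPKM as mean and SD over 3 libraries per treatment, where the 7153-nt transcript goes from the largest bar of the controls to about 5% and the 3398-nt transcript becomes the largest of the knockdowns.

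In the transcript fit (limma diffSplice), which tests whether a transcript departs from the rest of its gene, 27 of the 34 transcripts could be tested and 1 was called, TCONS_00013729, against a background of 0.302% of 31429 transcripts. The other 7 were Hmox1's sole transcript and 6 that did not pass the filter. Shares did not overlap between treatments for 7 of the 27, against 9.37%, 6 of them from Nfe2l1 and the other TCONS_00066373 of Gclc. When batch 1, batch 2 or batch 3 was left out, 0 Nfe2l1 transcripts were called in each case, and 0 with diffSplice on log2(RPKM + 0.1). With a batch left out, 0 to 1 of all 31429 transcripts were called higher and 0 to 1 lower. The 0 for Nfe2l1 was therefore nearly fixed in those fits. On log2(RPKM + 0.1) the numbers over all transcripts were 79 and 86. Since Nfe2l1 was chosen for this change, these calls describe the members and add no evidence for it.

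Grouped by where they start, transcripts that begin at the most upstream first exons held 55.9%, 87.7% and 78.9% of the gene's RPKM in controls 1, 2 and 3 and 24.4%, 21.1% and 28.6% in knockdowns. Transcripts that start inside the gene, downstream of the second exon, held 31.7%, 5.19% and 7.37% in controls and 54.5%, 57.4% and 53.1% in knockdowns. The middle first exon went from 12.4%, 5.08% and 13.7% to 21.2%, 21.5% and 18.3%. None of these 3 classes overlapped between treatments. In summed RPKM the internal starts were at 16.0, 2.40 and 2.20 in controls and 41.3, 52.3 and 34.1 in knockdowns. By contrast the 6 transcripts that contain the 1011-nt second exon summed to 34.5, 43.0 and 27.7 RPKM in controls and to 34.6, 38.8 and 30.1 RPKM in knockdowns. That sum overlapped between treatments, with a ratio of means of 0.98, although its share of the gene went from 68.3%, 92.8% and 92.6% to 45.5%, 42.6% and 46.9%.

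Grouped by where they end, transcripts with the proximal last exon held 37.1%, 10.1% and 9.39% in controls and 74.2%, 64.2% and 71.0% in knockdowns. Those with the distal last exon made up the rest of the gene. They include the 7153-nt transcript, whose 5348-nt exon contains the sequence of the proximal last exon. Within the distal group, transcripts without the 5348-nt exon went from between 6.51% and 13.1% to between 20.6% and 30.6%, so the fall of the distal group lay in the long transcript. The first exon shared by all 10 transcripts came in forms of 216 and 183 nt, which differ by 33 nt at the 5′ end, and the long form held 72.2%, 98.6% and 98.1% in controls and 54.6%, 51.5% and 55.0% in knockdowns. The short form occurs in 2 transcripts alone, so this shift follows from the rise of TCONS_00013731. The proximal end was also higher in share together with the 216-nt form and the middle start, in TCONS_00013735.

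**Figure D4:**
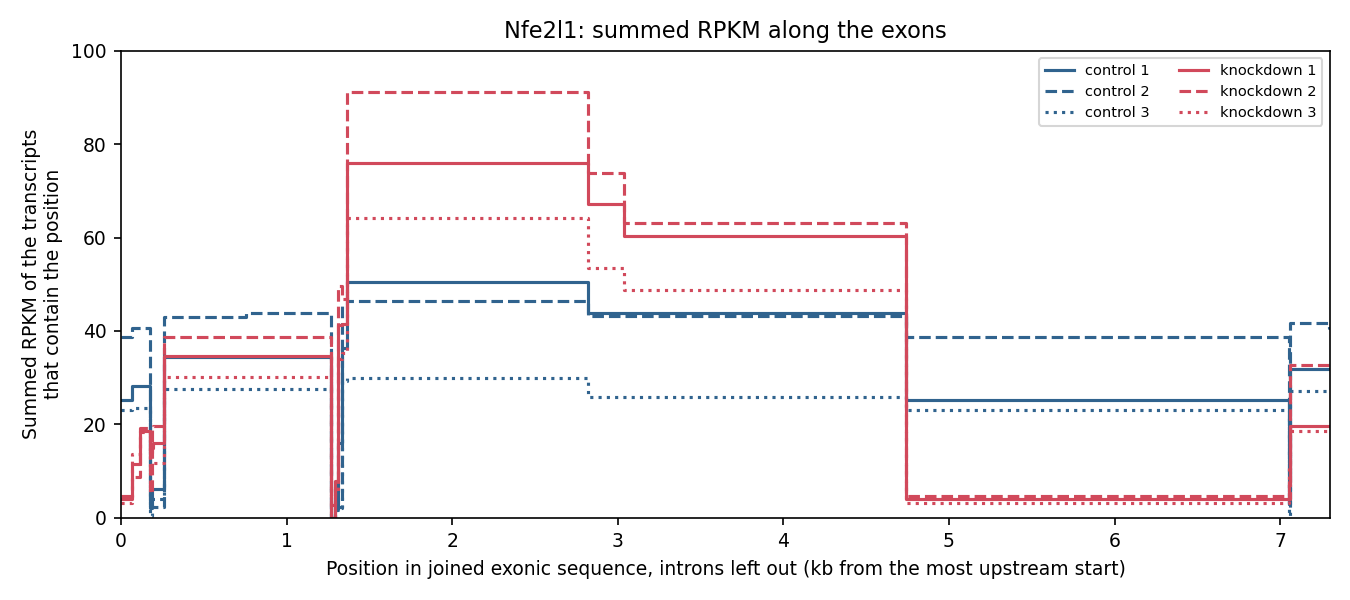
Summed RPKM of the Nfe2l1 transcripts that contain each position of the joined exonic sequence, 1 line per library, with introns left out. The 2314-nt stretch found in the 7153-nt transcript alone lies at 23.1 to 38.6 in controls and 3.19 to 4.69 in knockdowns, while the second exon lies at similar heights in all 6.

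Along the gene, a stretch of 2314 nt within the 5348-nt exon, between 84477413 and 84479726, belongs to the 7153-nt transcript alone, and its summed RPKM in knockdowns was 0.14 of that in controls. Stretches common to all 10 transcripts (183, 159 and 1116 nt) were 1.83 times the controls. These are sums of the authors' transcript estimates and not read coverage measured at each base, so they carry any error in how reads were divided among transcripts. In the shares of the upstream and internal starts, of the last exons and of the exon forms, control 1 lay between the other controls and the knockdowns. Control 1 was also the deepest library of the study, at 292432076 assigned reads, and the part of depth in its position was not tested.

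RefSeq lists 3 starts for rat Nfe2l1 on the assembly GRCr8, on the minus strand of chromosome 10. Counted from the most upstream of them, the other starts lie 445 and 5977 bases downstream. In the deposited assembly on Rnor_5.0 the middle first exons start 498 to 515 nt and the internal first exons 5984 to 6113 nt downstream of the most upstream start. The spacings are given side by side, since the builds were not compared base by base. The 250 bases before each RefSeq start are shown, in upstream to downstream order, as sequence context for a gene with several starts, without matching them to the starts of the assembly, with every CCAAT or its reverse complement ATTGG, the box bound by NF-Y, in capitals.
Nfe2l1 start 1, chr10:82309376-82309625 (minus): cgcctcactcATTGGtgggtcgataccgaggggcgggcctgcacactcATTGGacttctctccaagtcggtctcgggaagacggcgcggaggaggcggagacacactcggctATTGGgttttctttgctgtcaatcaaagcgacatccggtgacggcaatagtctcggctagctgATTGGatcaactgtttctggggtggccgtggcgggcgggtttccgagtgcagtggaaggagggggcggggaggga
Nfe2l1 start 2, chr10:82308931-82309180 (minus): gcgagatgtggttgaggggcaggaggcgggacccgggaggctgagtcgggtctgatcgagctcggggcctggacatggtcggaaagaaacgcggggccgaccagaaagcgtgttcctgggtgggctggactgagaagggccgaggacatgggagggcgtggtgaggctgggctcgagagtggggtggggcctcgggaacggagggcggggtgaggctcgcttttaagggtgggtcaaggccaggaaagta
Nfe2l1 start 3, chr10:82303399-82303648 (minus): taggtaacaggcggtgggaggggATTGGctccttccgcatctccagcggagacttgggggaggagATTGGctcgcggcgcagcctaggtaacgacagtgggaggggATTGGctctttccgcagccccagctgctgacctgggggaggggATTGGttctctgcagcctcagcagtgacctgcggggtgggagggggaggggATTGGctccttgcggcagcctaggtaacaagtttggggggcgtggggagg
RefSeq starts 1 and 3 carried 4 and 5 such boxes, all on the opposite strand as ATTGG, and RefSeq start 2 carried 0. Of 33469 RefSeq promoters of this length, 34.0% held at least 1 box, 0.565% at least 4 and 0.179% at least 5. This motif was chosen after the sequences were seen, and a match describes letters, not binding.

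Nfe2l2 differed little between treatments. The gene lies on chromosome 3 between 69041641 and 69069519 on the minus strand and was measured at 54.8, 54.2 and 59.8 CPM in controls and 58.0, 52.1 and 61.5 CPM in knockdowns. The groups overlapped, and the log2 fold change was 0.02 (SE 0.05). Summed RPKM gave 22.0, 23.5 and 23.2 in controls and 23.5, 24.2 and 24.8 in knockdowns. Over the 6 libraries it spanned the narrowest band after Gclm on this scale.

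The 7 Nfe2l2 transcripts also overlapped. The reference transcript (TCONS_00045725, 2328 nt) held 45.6%, 57.8% and 56.3% in controls and 48.0%, 45.7% and 61.9% in knockdowns. TCONS_00045719 (2224 nt), which starts downstream of the reference start, held 23.6%, 11.4% and 12.4% in controls and 24.3%, 31.0% and 10.4% in knockdowns, and TCONS_00045723 (2471 nt, 6 exons) 26.2%, 24.9% and 20.2% against 24.6%, 19.8% and 21.0%. No order by treatment was seen in these shares. An exon of 189 or 168 nt, the forms 21 nt apart, was in its long form in 50.2%, 63.7% and 57.7% of control RPKM and 51.1%, 49.1% and 67.3% of knockdown RPKM. The other 4 were each at 0 in some library and held at most 9.68% anywhere.

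Keap1, the adaptor that holds Nfe2l2 and presents it for ubiquitination, lies on chromosome 8 between 22306151 and 22315121 on the minus strand. It was measured at 43.8, 41.1 and 37.5 CPM in controls and 43.6, 42.2 and 40.2 CPM in knockdowns. The groups overlapped, with a log2 fold change of 0.04 (SE 0.05). Of its 3 transcripts a short one of 1201 nt with an internal start (TCONS_00067360) held 45.2% to 54.9% in all libraries. Control 3 stood apart in the other two: TCONS_00067361 (2883 nt) held 31.8% there and 6.41% to 9.84% in the other libraries, and the reference transcript TCONS_00067362 held 20.5% there and 38.6% to 47.2% elsewhere.

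Hmox1, the inducible haem oxygenase, had the highest mean RPKM of the 8 in controls and differed more between batches than between treatments. On chromosome 19 between 25622556 and 25629372, it was measured at 249, 144 and 239 CPM in controls and 256, 128 and 214 CPM in knockdowns. Batch 2 was the lowest in each treatment, the groups overlapped, and the log2 fold change was -0.09 (SE 0.06). It has a single transcript of 1542 nt, so no share could be computed. Nqo1, a quinone reductase, lies on chromosome 19 between 49291559 and 49306916 and was at 61.9, 38.2 and 52.4 CPM in controls and 68.8, 34.0 and 46.8 CPM in knockdowns. It too was lowest in batch 2 under each treatment, with a log2 fold change of -0.05 (SE 0.08). Summed beta cell markers were lowest and alpha cell markers highest in batch 2 (values above).

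Nqo1 had 2 transcripts, which differ in part by a 102-nt cassette exon. The cassette was included in 77.7%, 85.0% and 78.7% of RPKM in controls and 82.0%, 80.7% and 82.7% in knockdowns. The treatments overlapped.

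Gclc, the catalytic subunit of glutamate-cysteine ligase and so the enzyme that limits glutathione synthesis, was higher in the knockdown library of each batch by a small amount. On chromosome 8 between 84627569 and 84666332, it was at 24.4, 27.6 and 21.3 CPM in controls 1, 2 and 3 and at 28.1, 31.4 and 23.7 CPM in knockdowns. The batch log2 ratios were 0.20, 0.18 and 0.15, and the fitted log2 fold change was 0.18 (SE 0.05). Across batches the groups overlapped, since batch 3 was lowest and batch 2 highest in each treatment. In summed RPKM the values were 7.43, 9.07 and 6.23 against 8.84, 11.1 and 7.38.

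Of the 4 Gclc transcripts the reference one (TCONS_00066372, 3045 nt) led in every library, with 53.6%, 72.5% and 67.0% in controls and 55.3%, 65.0% and 59.8% in knockdowns. TCONS_00066370 (3286 nt) held 32.6%, 15.9% and 6.09% in controls and 9.87%, 6.72% and 3.35% in knockdowns, and TCONS_00066371 (3277 nt) 5.63%, 11.5% and 24.8% against 18.1%, 18.6% and 24.8%. The former was lower in the knockdown of each batch, but neither separated the treatments. TCONS_00066373 (2440 nt), which starts inside the gene, held 8.20%, 0.09% and 2.12% in controls and 16.7%, 9.68% and 12.1% in knockdowns. Every knockdown was above every control for it, and as in Nfe2l1 control 1 was the highest of the controls. Cassette exons of 114 and 105 nt in Gclc were included in 74.7% to 93.9% and 67.4% to 93.9% of control RPKM and in 71.8% to 79.5% and 90.1% to 96.7% of knockdown RPKM, with overlap for each. Within each batch the knockdown was lower for the 114-nt exon and higher for the 105-nt exon.

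Gclm, the modifier subunit of the same ligase, was the steadiest of the 8 in summed RPKM, between 40.9 and 43.5 in all libraries. It lies on chromosome 2 between 243862116 and 243887757 and was at 129, 111 and 124 CPM in controls and 130, 120 and 124 CPM in knockdowns. The log2 fold change was 0.04 (SE 0.05). Of its 2 reference transcripts, that of 1486 nt (TCONS_00037172) held 70.3%, 70.9% and 72.0% in controls and 69.6%, 66.0% and 71.5% in knockdowns. The other, TCONS_00037171 (6757 nt), held 4.28% to 6.16% in all libraries. TCONS_00037173 (5750 nt) held 20.0% to 29.7% except in control 3, where it was listed at 0 and the similar TCONS_00037174 (5771 nt) held 21.9%.

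Txnrd1, the cytosolic thioredoxin reductase, lies on chromosome 7 between 27065810 and 27104095 on the minus strand. It was at 112, 110 and 92.9 CPM in controls and 122, 107 and 103 CPM in knockdowns, which overlapped, and the difference was 0.08 (SE 0.06) on the log2 scale. Its 3 transcripts varied without order by treatment: the reference TCONS_00063196 held 63.8%, 55.6% and 43.1% in controls and 59.2%, 33.9% and 50.4% in knockdowns. TCONS_00063195 (3335 nt) held 14.0%, 35.0% and 56.9% in controls and 29.2%, 33.9% and 19.1% in knockdowns, and TCONS_00063194 (3351 nt) was at 0 in control 3 and reached 32.2% in knockdown 2. For TCONS_00063195 the range of the controls enclosed all knockdown values. A 108-nt cassette exon was included in 86.0%, 65.0% and 43.1% of control RPKM and 70.8%, 66.1% and 80.9% of knockdown RPKM. All 4 cassette exons found in these genes have a length that is a multiple of 3.

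The antioxidant response element, on which Nfe2l1 and Nfe2l2 bind with small Maf proteins, was searched as TGACNNNGC on each strand in the 250 bases before the RefSeq starts (GRCr8). A match in which TCA follows TGAC also holds the AP-1 motif TGANTCA. Promoters were listed for 7 of the 8 genes, Hmox1 excepted, 10 promoters in all. 2 of the 10 held the motif, against 3373 of 33469 promoters (10.1%), namely that of Gclm at position -172 and the downstream one of Txnrd1 at position -78 from the start. They are shown with the match in capitals, which lies on the opposite strand in each and does not overlap an AP-1 motif.
Gclm, chr2:213031885-213032134 (plus): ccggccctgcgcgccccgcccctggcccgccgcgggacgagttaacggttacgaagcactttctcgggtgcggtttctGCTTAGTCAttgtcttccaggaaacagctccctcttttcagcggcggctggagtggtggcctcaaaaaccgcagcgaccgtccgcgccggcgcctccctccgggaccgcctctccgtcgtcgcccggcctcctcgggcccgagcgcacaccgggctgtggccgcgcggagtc
Txnrd1 start 2, chr7:22755905-22756154 (minus): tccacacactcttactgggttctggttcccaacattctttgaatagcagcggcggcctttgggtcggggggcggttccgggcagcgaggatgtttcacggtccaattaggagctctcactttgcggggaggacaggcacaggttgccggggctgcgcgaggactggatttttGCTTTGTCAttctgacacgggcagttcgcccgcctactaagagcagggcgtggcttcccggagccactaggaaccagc
No match in the other 8 windows says only that these letters are not in 250 bases, and response elements often lie further upstream.

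Other genes of the pathway were followed in 10 lists with 170 of 181 symbols in the assembly and 172 gene models tested. In limma 0 rose and 3 fell, against backgrounds of 0.513% and 1.2% of the genes tested. At an unadjusted p below 0.05 there were 38 (22.1%), against 3816 (23.9%) of all genes tested, the background for the unadjusted count of each list that follows. By sign 51 models were positive and 121 negative, against 8112 and 7871 of all genes tested, which had a median log2 fold change of 0.00. Fold changes also followed transcript length. The shortest 25% of the genes tested (median 799 nt) had a median of -0.11 and 69.2% negative, and the longest 25% (median 5178 nt) a median of 0.10 and 29.5% negative. The part of length in the lists' medians was not tested.

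Among regulators, 0 of 5 tested CNC factors, small Maf partners and repressors were called (median -0.05; 2 at an unadjusted p below 0.05). Bach1, a repressor at the same elements, was at 47.1, 31.3 and 48.2 CPM in controls and 52.3, 40.6 and 55.8 CPM in knockdowns (log2 fold change 0.24, SE 0.06, adjusted p = 0.11 in limma). Mafk, a small Maf partner, was at 33.8, 35.0 and 29.5 against 32.5, 32.3 and 29.8 CPM. Mafg, named after its values were seen, had 567.7 reads in control 2, 14.6 in control 3, 8.63 in knockdown 2 and was listed at 0 in the other 3 libraries, so no fold is given. Of 8 genes of Nfe2l2 turnover, 1 fell in limma (median -0.05; 3 at an unadjusted p below 0.05). It was Dpp3, a peptidase that binds Keap1, from 76.7, 77.0 and 77.0 CPM to 57.9, 57.0 and 60.2 CPM (log2 fold change -0.40, SE 0.05, adjusted p = 0.042 in limma). The groups did not overlap. Dpp3 did not pass with any batch left out (adjusted p from 0.062 to 0.20) or with library totals (0.055). Sqstm1, an autophagy receptor that binds Keap1, was far more abundant than Dpp3, whose mean control RPKM was 31.1. It was at 769, 432 and 738 RPKM in controls and 832, 424 and 756 RPKM in knockdowns, again lowest in batch 2. Rbx1, a subunit of the Cul3 ligase, had a log2 fold change of -0.09 (SE 0.08).

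Of 10 genes of Nfe2l1 release and processing, 0 were called in limma (median 0.06; 2 at an unadjusted p below 0.05). Vcp, the ATPase that extracts proteins from the endoplasmic reticulum, was at 509, 553 and 518 CPM in controls and 570, 558 and 536 CPM in knockdowns. Its groups did overlap. Hm13, an intramembrane protease, was at 192, 205 and 202 CPM against 179, 182 and 183 CPM, without overlap (log2 fold change -0.14, SE 0.04, adjusted p = 0.16). Proteasome subunits, the best known Nfe2l1 targets, were listed with associated factors as 43 gene models. In limma 0 were called (7 at an unadjusted p below 0.05, or 16.3% against the background of 23.9%). Of the models, 38 were negative, with a median of -0.08 and a median length of 1307 nt. Their log2 fold changes ran from -0.48 to 0.09. Psmb6 was counted at 2 loci that could share reads, with log2 fold changes of -0.45 and -0.48. Pomp, a proteasome assembly factor found at 2 loci that could share reads, was at 74.7, 51.3 and 79.2 CPM in controls and 75.1, 35.8 and 72.6 CPM in knockdowns at the first locus, with batch 2 lowest in each treatment.

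Among effectors, 0 of 34 genes of glutathione synthesis and use were called (median -0.07; 6 at an unadjusted p below 0.05). Slc3a2, which pairs with the cystine carrier, was at 456, 393 and 404 CPM in controls and 411, 349 and 355 CPM in knockdowns, lower in each batch (log2 fold change -0.17, SE 0.04, adjusted p = 0.11). Gpx4, which reduces lipid peroxides, was at 129, 71.3 and 160 CPM against 126, 51.4 and 132 CPM. Of 15 thioredoxin and peroxiredoxin genes 1 fell in limma (median -0.11; 5 at an unadjusted p below 0.05). It was Txn2, the mitochondrial thioredoxin, at 67.7, 40.5 and 72.1 CPM in controls and 55.2, 30.9 and 56.4 CPM in knockdowns (log2 fold change -0.34, SE 0.05, adjusted p = 0.046 in limma). Each batch was lower but the groups overlapped, and no call was made with any batch left out (adjusted p from 0.11 to 0.20) or without the filter on low reads (0.053). Prdx1 and Prdx2, the cytosolic peroxiredoxins, were at -0.16 (SE 0.05) and -0.16 (SE 0.08) on the log2 scale.

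Of 15 genes of haem and iron handling 1 fell in limma (median -0.04; 3 at an unadjusted p below 0.05). It was Hmox2, the constitutive haem oxygenase, while the inducible Hmox1 was not called. Hmox2 was at 51.2, 43.4 and 45.9 CPM in controls and 37.2, 29.5 and 35.8 CPM in knockdowns, with no overlap (log2 fold change -0.45, SE 0.06, adjusted p = 0.045 in limma). It did not pass with any batch left out (adjusted p from 0.054 to 0.20) or with library totals (0.052), and the difference between Hmox2 and Hmox1 was not tested. The ferritin light chain model listed as FTL1 was at 3395, 1167 and 2905 RPKM in controls and 4177, 1092 and 3286 RPKM in knockdowns. A further light chain model at another locus had a mean control RPKM of 1225, and these loci could share reads. The heavy chain Fth1 was at 2377, 1859 and 2136 RPKM in controls against 2552, 1692 and 2078 RPKM in knockdowns. FTL1 and Fth1 were the most abundant genes named and were lowest in batch 2 under each treatment, as were Hmox1, Nqo1 and Sqstm1. Genes of other lists were also lowest in batch 2 under each treatment in CPM, among them Gpx4, Txn2, Sod1 and Sod2. Gclc was highest in batch 2, at 27.6 and 31.4 CPM, and Txnrd1 was lowest in batch 3.

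Sod1, the cytosolic superoxide dismutase, was at 471, 408 and 447 CPM in controls and 430, 281 and 383 CPM in knockdowns, lower in each batch (log2 fold change -0.30, SE 0.09, adjusted p = 0.13 in limma). Sod2, the mitochondrial form, was at 238, 165 and 270 CPM against 214, 152 and 231 CPM, also lower in each batch (adjusted p = 0.13). Of the 6 superoxide dismutase and catalase models 0 were called (median -0.12; 2 at an unadjusted p below 0.05). Of 13 genes of NADPH supply 0 were called (median -0.09; 4 at an unadjusted p below 0.05). There Me1, malic enzyme, had a log2 fold change of 0.12 (SE 0.05) and Idh2 one of -0.07 (SE 0.05). Of 23 detoxication models 0 were called (median -0.01; 4 at an unadjusted p below 0.05), with Akr1a1, an aldehyde reductase, at -0.12 (SE 0.06).

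Over the 6 libraries, the genes whose log2 CPM ran most closely with that of Nfe2l1 were Pard3 (Pearson r = 0.999), Tshz2 (0.998) and Prrc2a (0.998), out of 10140 searched. For Nfe2l2 they were Cdkal1 (0.996), Ift46 (0.992) and Cryba2 (0.990). Between the members, Nfe2l1 ran with Keap1 at 0.88, with Txnrd1 at 0.88 and with Gclc at 0.87, with Gclm at -0.19, Nqo1 at -0.15 and Hmox1 at -0.42, and with Nfe2l2 at -0.70. With 6 points that share batches and depth, and a search over many genes, these values are a description.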

How the data were processed

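RNA from 6 libraries of rat beta cells, 3 control and 3 Nova1 knockdown grouped by their titles, was sequenced after oligo(dT) selection, per the labels' protocols. Reads were aligned with TopHat to Rnor_5.0, per the submitters' processing notes. For each transcript of an assembly the authors deposited an estimated read count and an RPKM value, per the file contents, as attribute text. How reads were divided among transcripts, and whether by strand, is not given in the sources used here. Of the read values above 0, 18.2% to 18.8% per library were whole as written, with a tolerance of 0. The deposited assembly also gives other values, such as coordinates and class codes (reference match or new splice combination), taken as they stand.

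Estimated reads were summed per gene model and scaled by the trimmed mean method (TMM), with 30% of M and 5% of A values removed. A gene was tested where 3 or more libraries reached what 10 reads make in a library of median depth and its total was 15 or more. All genes were fitted together by voom (limma 3.58.1 under R 4.3.3), with batch as a block and 2 residual degrees of freedom for a gene. Benjamini-Hochberg adjustment ran over all genes tested, and adjusted p below 0.05 was a call. Transcript shares were fitted with limma diffSplice in the same way. The scripts were tested on simulated data. Voom took the place of a count model because reads are attribute text. The batches pair the libraries, as the series' design text says, and deviations from the group means correlated within batches 1, 2 and 3 at 0.38, 0.72 and 0.56. Promoters are from RefSeq on GRCr8, matched by symbol.

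The 8 genes and the lists were chosen with earlier results of these data known. Genes named are the 8, Nova1, the called genes of each list (up to 4) and its 2 most abundant, and the 3 genes most like Nfe2l1 and Nfe2l2. An item that the rule takes is not reported here. Alternatives were no block, each batch left out, other scalings and filters, diffSplice on log2(RPKM + 0.1), limma-trend at pseudocounts of 1 and 0.1, shares of reads, and shares over transcripts with at least 10% of their gene.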

Additional observations from a re-analysis of the deposited data

How the results depend on the processing

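In limma without the replicate block, 0 genes were called higher and 0 lower (242 and 279 at an unadjusted p below 0.05), against 82 and 192 with it. Leaving out batches in turn gave 0 to 36 higher and 0 to 53 lower, library totals 47 and 44, no filter 46 and 125, a filter 5 times stricter 33 and 86, and limma-trend on log2(RPKM + 1) or log2(RPKM + 0.1) 0 and 0 (2000 and 1193, then 1933 and 1178, at an unadjusted p below 0.05). Of the 89 genes called without batch 3, 59 were among the 274, and of the 4 called without batch 1, 0 were. Without batch 2, 0 were called. Over the pathway lists, 3 genes were called (38 models at an unadjusted p below 0.05). The number called was 0 without the block (2 at an unadjusted p below 0.05), 0 to 0 with a batch left out (39, 24 and 24 without batches 1, 2 and 3), 0 with library totals (35), 0 with limma-trend at either pseudocount (35 each) and 1 under the stricter filter. In limma diffSplice, leaving out batches gave 0 to 1 transcripts higher and 0 to 1 lower against 48 and 47, no filter 81 and 111, the stricter filter 23 and 20, and log2(RPKM + 0.1) 79 and 86. Without the replicate block 51 and 56 transcripts were called, including 2 of Nfe2l1. Dpp3, Txn2 and Hmox2 each had an adjusted p of 1.00 in limma without the block and 0.14 to 0.15 with limma-trend. The causes were not tested.

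The log2 fold change of Nfe2l1 moved from 0.12 on reads to 0.87 on log2(RPKM + 1) and 0.89 on log2(RPKM + 0.1), with 0.04 to 0.17 when batches were left out. The share change of TCONS_00013729, -65.2 percentage points, stayed between -75.4 and -58.6, and that of TCONS_00013731, 35.4 points, between 29.8 and 50.6. Gclc stayed between 0.17 and 0.26 over 10 alternatives, while Nfe2l2 kept its sign in 9 and Nqo1 in 8 of 10. The number of batches, 3, limits the tests.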
